A study of Homo sapiens with 16 samples.

Results

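The ETS factor genes of prostate cancer are 8 genes of transcription factors that share the ETS DNA-binding domain: ERG and FLI1, the PEA3 subfamily genes ETV1, ETV4 and ETV5, and the epithelial factors ELF3, EHF and SPDEF. They were chosen by name for their known roles in prostate cancer, and are 8 of 28 ETS genes and 8 of 20037 protein-coding genes in the annotation. Their positions are given in GRCh38, the build of the peak lists. EZH2, the histone methyltransferase of Polycomb repressive complex 2, its product H3K27me3, and H3K4me3, a mark of active promoters, were the targets of CUT&RUN in LNCaP, a prostate carcinoma line that responds to androgen. In CUT&RUN an antibody directs a nuclease to its target, and the released fragments are sequenced. The 4 conditions were LNCaP with a PRKCI guide (sgPRKCI) on enzalutamide, LNCaP with a control guide (sgC, genotype label sgControl) on enzalutamide, sgPRKCI in DMSO and sgC in DMSO. Enzalutamide, an antiandrogen, was given at 10 µM, and treatment lasted 72 h. PRKCI encodes an atypical protein kinase C. Whether the guide lines were pools or clones is not given in the sources used here. Each of the 12 libraries used is the sole library of its antibody and condition, so no difference has a replicate check and none was tested.

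ETS factors bind DNA around a GGAA core. In prostate cancer, gene fusions place ERG, and less often ETV1, ETV4, ETV5 or FLI1, under androgen-responsive promoters such as that of TMPRSS2. LNCaP carries no ERG fusion, and its ETV1 gene has been reported to lie in a piece of DNA inserted into another chromosome. ELF3, EHF and SPDEF are expressed in luminal epithelium, where SPDEF was first described as an activator of the PSA promoter. Polycomb repressive complex 2 tends to occupy CpG-rich promoters of genes that a lineage does not use.

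The luminal markers KLK3, FOLH1, TMPRSS2, HOXB13, KRT8 and KRT18 had promoter H3K4me3 in all 4 conditions, and KLK2 lacked a call in sgC enzalutamide alone. No basal marker of 4 had it. H3K4me3 peaks numbered 17424 to 19294 per library and EZH2 peaks 6182 to 24551. Peak values give an estimate of mean fragment coverage, the lowest local background among the peaks of a library. It was 0.842 to 1.56 for H3K4me3 and 1.13 to 1.68 for EZH2. H3K27me3 depth cannot be recovered, and peaks of that mark covered 192 to 290 Mb. One EZH2 library, that of sgPRKCI enzalutamide, differed from the remaining EZH2 libraries. Its peaks lay at 96.3% of the genes that had H3K4me3 without H3K27me3, against 3.82% in sgC enzalutamide, 4.22% in sgPRKCI DMSO and 19.5% in sgC DMSO. Results on EZH2 are therefore given with and without it.

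Promoter sequences are shown for 4 genes, 1 start each, with every CG in capitals. The starts shown lay at opposite ends in CpG content. They are RefSeq promoters of GRCh38.p14, from 250 bases before to 50 bases after an annotated start, printed 5′ to 3′ on the strand of the gene. They lie at chr21:38660618-38660917 on the minus strand for ERG, chr1:202010337-202010636 on the plus strand for ELF3, chr11:34624007-34624306 on the plus strand for EHF, and chr6:34556280-34556579 on the minus strand for SPDEF. The ERG and EHF starts of this table lie more than 1 kb downstream of the annotated 5′ ends of those genes. Part of the ERG sequence and none of the EHF sequence is therefore in the 1 kb window used for promoter calls, and calls within 1 kb of these table starts were the same as those at the 5′ ends.
ERG: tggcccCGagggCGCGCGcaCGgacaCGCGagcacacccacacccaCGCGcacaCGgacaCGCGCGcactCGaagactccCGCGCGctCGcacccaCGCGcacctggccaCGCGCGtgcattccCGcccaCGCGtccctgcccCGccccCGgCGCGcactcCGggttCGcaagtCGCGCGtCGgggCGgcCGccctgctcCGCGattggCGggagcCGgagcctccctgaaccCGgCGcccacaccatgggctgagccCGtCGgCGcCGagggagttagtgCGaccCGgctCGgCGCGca
ELF3: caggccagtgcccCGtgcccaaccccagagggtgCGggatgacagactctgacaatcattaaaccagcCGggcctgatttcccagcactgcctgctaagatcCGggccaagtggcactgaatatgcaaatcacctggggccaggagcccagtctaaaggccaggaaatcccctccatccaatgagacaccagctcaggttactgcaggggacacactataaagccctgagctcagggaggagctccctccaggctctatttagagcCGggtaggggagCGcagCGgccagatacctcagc
EHF: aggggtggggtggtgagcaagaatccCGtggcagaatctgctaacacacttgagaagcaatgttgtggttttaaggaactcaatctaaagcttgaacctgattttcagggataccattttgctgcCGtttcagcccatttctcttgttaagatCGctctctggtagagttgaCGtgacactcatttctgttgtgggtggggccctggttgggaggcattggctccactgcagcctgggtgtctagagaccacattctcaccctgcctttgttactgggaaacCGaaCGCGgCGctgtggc
SPDEF: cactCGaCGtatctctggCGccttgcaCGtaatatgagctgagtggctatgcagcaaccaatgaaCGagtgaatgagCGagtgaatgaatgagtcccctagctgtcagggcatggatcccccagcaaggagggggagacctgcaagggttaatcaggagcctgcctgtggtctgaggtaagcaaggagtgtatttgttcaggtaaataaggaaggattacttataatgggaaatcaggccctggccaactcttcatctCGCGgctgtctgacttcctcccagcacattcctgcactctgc
ERG held 53 CG dinucleotides in these 300 bases, with a GC content of 77.0%. ELF3 held 7, EHF 8 and SPDEF 8, with GC contents of 59.0%, 51.3% and 52.0%. ERG is rich in CG at this start alone, since its starts 2, 3 and 4, further into the gene, held 4 CG each. Start 2 of EHF held 3. The start of ETV1 nearest its 5′ end held 18 CG at 57.3% GC. Over 22199 promoters of 15843 genes the median was 21 CG, with quartiles of 7 and 31, and 62.3% GC. The ETS core, searched as GGAA or TTCC so that both strands count, was present 1 time in ERG, 2 times in ELF3, 2 times in EHF, 4 times in SPDEF and 4 times in ETV1. At least 1 such core is in 95.1% of all promoters. The longer form CCGGAA or TTCCGG, which contains the core, was found in ETV1 and not in the other 4, and 21.2% of all promoters hold it. ETV4, ETV5 and FLI1 are not in the promoter table.

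At their promoters 4 of the genes carried H3K27me3 and 3 carried H3K4me3 without it in every condition, while ETV1 had H3K27me3 over its gene and no H3K4me3. A promoter was taken as 1 kb to either side of the annotated 5′ end, or of both annotated ends for ETV4, ETV5 and FLI1, whose strand the annotation used does not give. ERG, FLI1, ETV4 and ETV5 carried promoter H3K27me3 in all 4 conditions, while ELF3, EHF and SPDEF carried H3K4me3 in all 4 and H3K27me3 in none. ETV4 carried both marks in all 4 conditions, a state shared by 1.56% of all genes and by 0 of the 20 other ETS genes. Its H3K4me3 peak had a −log10 q of 9.35 in sgPRKCI enzalutamide, 9.94 in sgC enzalutamide and 8.37 in sgPRKCI DMSO. In sgC DMSO it was 16.4, so at a threshold of 10 the H3K4me3 call of ETV4 remains in sgC DMSO alone. FLI1 had H3K27me3 in all 4 and H3K4me3 in none, as did 8.13% of all genes and ETS1 among the other ETS genes. H3K4me3 in all 4 with no H3K27me3, the state of ELF3, EHF and SPDEF, was that of 54.2% of all genes and 13 of the 20 other ETS genes.

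**Figure D1:**
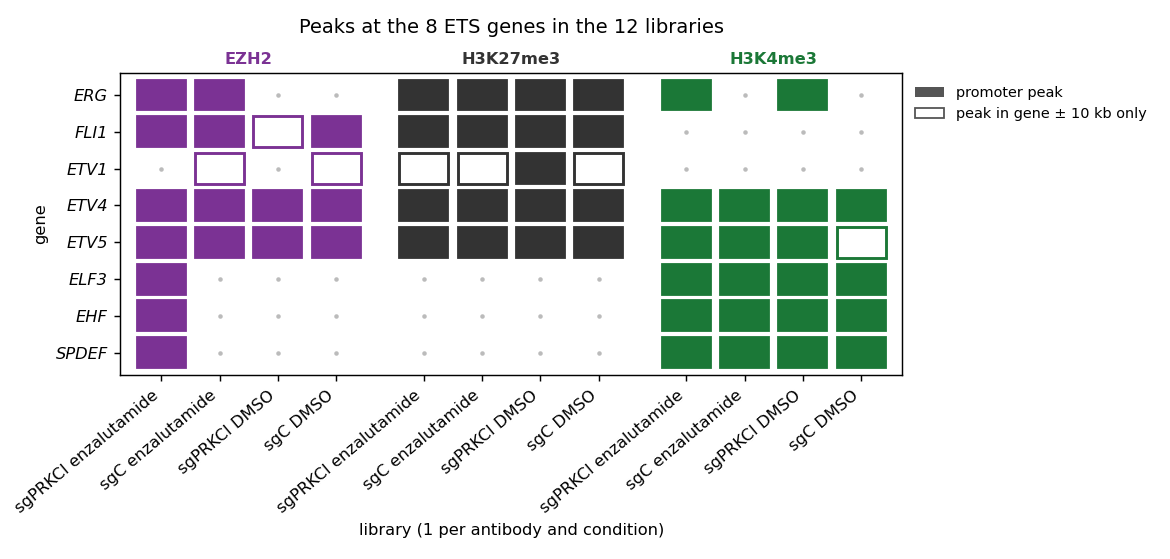
Peak calls at the 8 genes (rows) in the 12 libraries (columns, 4 conditions per antibody). Filled squares are promoter peaks, open squares are peaks elsewhere in the gene or the 10 kb around it, and dots are libraries with no peak. ELF3, EHF and SPDEF have EZH2 in sgPRKCI enzalutamide alone, and ETV4 is filled in all 12 libraries.

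H3K27me3 promoter peaks were called at 4 of 8 genes in sgPRKCI enzalutamide (13.6% of all genes), 4 in sgC enzalutamide (15.5%), 5 in sgPRKCI DMSO (15.2%) and 4 in sgC DMSO (14.2%). H3K4me3 promoter peaks were called at 6 of 8 genes in sgPRKCI enzalutamide (60.3%), 5 in sgC enzalutamide (59.8%), 6 in sgPRKCI DMSO (60.0%) and 4 in sgC DMSO (58.2%). The share of the 8 genes with H3K27me3 stood above that of all genes in each library, and their share with H3K4me3 was near it. EZH2 promoter peaks were called at 7 of 8 genes in sgPRKCI enzalutamide (61.6%), 4 in sgC enzalutamide (9.90%), 2 in sgPRKCI DMSO (7.43%) and 3 in sgC DMSO (17.8%). Outside sgPRKCI enzalutamide, every member with a promoter EZH2 peak also carried promoter H3K27me3 in that condition. Over all genes, promoter EZH2 lay at 49.6% of those with promoter H3K27me3 in sgC enzalutamide, 33.1% in sgPRKCI DMSO and 48.2% in sgC DMSO. At genes with H3K4me3 and no H3K27me3 the shares were 3.82% in sgC enzalutamide, 4.22% in sgPRKCI DMSO and 19.5% in sgC DMSO. EZH2 thus lay more often at H3K27me3 promoters over all genes too. Over the whole gene and 10 kb around it, H3K27me3 lay at 5 of 8 genes in every condition, ETV1 being the addition. The shares of all genes were 32.4% in sgPRKCI enzalutamide, 33.8% in sgC enzalutamide, 34.9% in sgPRKCI DMSO and 30.9% in sgC DMSO. In these windows H3K4me3 lay at 6 of 8 genes in sgPRKCI enzalutamide (71.6%), 5 in sgC enzalutamide (71.1%), 6 in sgPRKCI DMSO (71.3%) and 5 in sgC DMSO (69.2%). EZH2 lay at 7 of 8 in sgPRKCI enzalutamide (73.5%), 5 in sgC enzalutamide (15.8%), 3 in sgPRKCI DMSO (11.2%) and 4 in sgC DMSO (25.1%).

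ERG, the most frequent ETS fusion gene of prostate cancer and an endothelial and blood lineage factor, lies at chr21:38367261-38661783. Its 5′ end lay in 1 H3K27me3 peak of 10725 bp in sgPRKCI enzalutamide, 11899 bp in sgC enzalutamide, 10072 bp in sgPRKCI DMSO and, in sgC DMSO, 10591 bp. The peak reached from just beyond the 5′ end into the gene in each condition. A small H3K4me3 peak was called inside it in both sgPRKCI libraries and in neither sgC library. It held 15 fragments at its summit in sgPRKCI enzalutamide and 14 in sgPRKCI DMSO, which is 10.8 times mean coverage (95% Poisson interval 6.03 to 17.8) in sgPRKCI enzalutamide and 11.5 times (6.29 to 19.3) in sgPRKCI DMSO. Heights are given on this scale throughout, as fragments at the highest summit of the promoter over mean fragment coverage, and intervals cover counting error only. Only 0.563% of all promoter peaks in sgPRKCI enzalutamide and 0.716% in sgPRKCI DMSO were lower. Where a call exists, ERG thus sat at the lower edge of what the caller reports. Peaks with as few as 10 summit fragments were called in sgC enzalutamide and 8 in sgC DMSO. ERG counted as gained for H3K4me3 in sgPRKCI against sgC on enzalutamide, among 1.12% of all genes, and in DMSO, among 1.84% of all genes. A gain is a peak within 1 kb in the first library and none within 5 kb in the second. The ERG peaks had a −log10 q of 9.50 in sgPRKCI enzalutamide and 9.22 in sgPRKCI DMSO, so both calls, and both gains of ERG, end at a threshold of 10. EZH2 at the same end had 15 summit fragments and a height of 9.80 (5.49 to 16.2) in sgPRKCI enzalutamide, and 15 fragments and 8.93 (5.00 to 14.7) in sgC enzalutamide, with no call in either DMSO library. ERG counted as gained for EZH2 on enzalutamide against DMSO in sgC, among 1.45% of all genes, and in sgPRKCI, among 54.1%.

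FLI1, the closest relative of ERG and the fusion partner of EWSR1 in Ewing sarcoma, lies at chr11:128685132-128813267. It had no H3K4me3 peak anywhere in its window in any condition. Its lower annotated end lay in 1 broad H3K27me3 peak of 19875 bp in sgPRKCI enzalutamide, 25907 bp in sgC enzalutamide, 20610 bp in sgPRKCI DMSO and 18720 bp, the shortest, in sgC DMSO. These were the longest H3K27me3 peaks at the promoter of any of the 8 genes, and they also covered the starts of the long noncoding RNA genes LOC101929538 and SENCR. EZH2 at that end had a height of 28.7 (20.9 to 38.6) in sgPRKCI enzalutamide, 31.5 (23.6 to 41.3) in sgC enzalutamide and 21.4 (14.4 to 30.8) in sgC DMSO. The summits of these promoter peaks lay 1879 bp inside the gene in sgPRKCI enzalutamide, 47 bp in sgC enzalutamide and 1804 bp in sgC DMSO. In sgPRKCI DMSO the nearest EZH2 peak, of 16 summit fragments, had its summit 1966 bp inside the gene. That peak was 252 bp wide and did not reach within 1 kb of the end. A second EZH2 summit recurred deeper in the gene in every condition. It lay 8103 bp from the end in sgPRKCI enzalutamide, 8167 bp in sgC enzalutamide, 8122 bp in sgPRKCI DMSO and, in sgC DMSO, 8108 bp. Its height was 49.7 (39.1 to 62.2) in sgPRKCI enzalutamide, 42.8 (33.5 to 54.0) in sgC enzalutamide, 30.2 (20.9 to 42.2) in sgPRKCI DMSO and 36.2 (26.8 to 47.9) in sgC DMSO. EZH2 at FLI1 was thus called at nearly the same point, deeper in the gene, in all 4 libraries. It was higher there than in the promoter peak wherever both were called.

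ETV1, a PEA3 subfamily factor that is overexpressed in a subset of prostate cancers, lies at chr7:13891229-13991425 and had no H3K4me3 peak in any condition. H3K27me3 was called across the gene, and reached within 1 kb of the outermost 5′ end in sgPRKCI DMSO alone. It lay within 1 kb of 4 of the 6 ETV1 starts in the promoter table in all 4 conditions, so with every start counted ETV1 carried promoter H3K27me3 throughout. Of the gene and the 10 kb around it, H3K27me3 peaks covered 62.9% in sgPRKCI enzalutamide, 39.1% in sgC enzalutamide, 35.6% in sgPRKCI DMSO and 14.7% in sgC DMSO. The mean over all genes was 6.24% in sgPRKCI enzalutamide, 7.07% in sgC enzalutamide, 6.57% in sgPRKCI DMSO and 5.43% in sgC DMSO, and the median was 0 in each. The covered share of ETV1 was 21.0 percentage points higher in sgPRKCI than in sgC in DMSO and 23.8 points higher on enzalutamide. It was 27.3 points higher on enzalutamide than in DMSO in sgPRKCI and 24.4 points higher in sgC. Library coverage moved in part with this: H3K27me3 peaks covered 249 Mb in sgPRKCI enzalutamide, 290 Mb in sgC enzalutamide, 232 Mb in sgPRKCI DMSO and 192 Mb in sgC DMSO, and the part of depth in the result was not tested. With peaks of −log10 q of at least 3 alone, the covered share was 38.6% in sgPRKCI enzalutamide, 11.6% in sgC enzalutamide and 0 in both DMSO libraries, which are then level. The longest ETV1 peak was 23185 bp in sgPRKCI enzalutamide, with a −log10 q of 4.95. Near its starts ETV1 had an EZH2 peak of 19 summit fragments in sgC enzalutamide and one of 13 in sgC DMSO, and no EZH2 peak in its window in either sgPRKCI library.

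**Figure D2:**
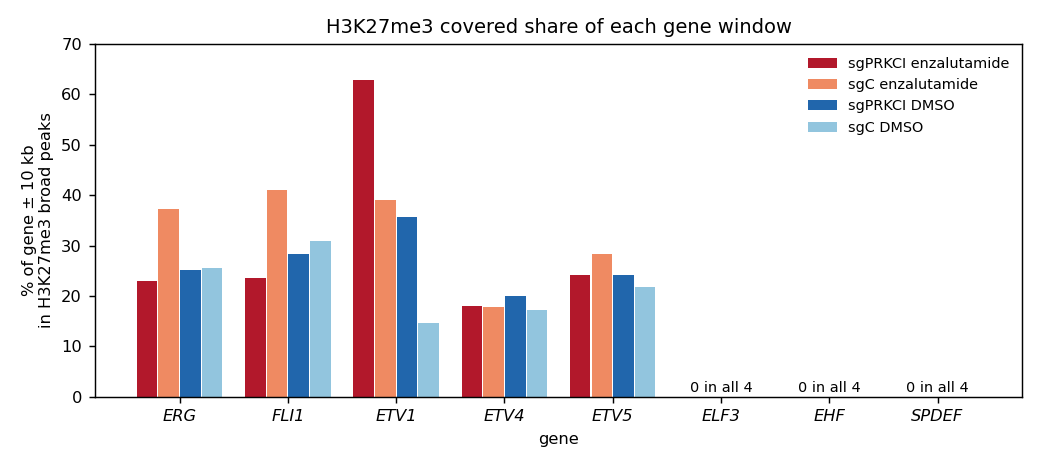
Share of each gene and the 10 kb around it that lies under H3K27me3 broad peaks, in percent, with 1 bar per condition and no replicates. ETV1 ranges from 62.9% in sgPRKCI enzalutamide to 14.7% in sgC DMSO, ETV4 stays between 17.3% and 20.0%, and ELF3, EHF and SPDEF are at 0.

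Elsewhere the covered share moved less. ERG had 22.9% in sgPRKCI enzalutamide, 37.2% in sgC enzalutamide, 25.1% in sgPRKCI DMSO and 25.5% in sgC DMSO. FLI1 had 23.5% in sgPRKCI enzalutamide, 41.0% in sgC enzalutamide, 28.3% in sgPRKCI DMSO and 31.0% in sgC DMSO. Both genes were highest in sgC enzalutamide, the library whose peaks covered most of the genome. ETV4 had 18.0% in sgPRKCI enzalutamide, 17.9% in sgC enzalutamide, 20.0% in sgPRKCI DMSO and 17.3% in sgC DMSO. ETV5 had 24.2% in sgPRKCI enzalutamide, 28.3% in sgC enzalutamide, 24.2% in sgPRKCI DMSO and 21.7% in sgC DMSO. With peaks of −log10 q of at least 3 alone, ERG had 9.57% in sgPRKCI enzalutamide, 19.7% in sgC enzalutamide, 9.20% in sgPRKCI DMSO and 10.0% in sgC DMSO. FLI1 then had 16.8% to 25.8%, again highest in sgC enzalutamide. ETV5 had 16.4% in sgPRKCI enzalutamide, 19.6% in sgC enzalutamide, 12.5% in sgPRKCI DMSO and 7.13% in sgC DMSO, and ETV4 kept its values. Peaks below this threshold thus made up part of the covered share at ERG, FLI1 and ETV5 as well, and none of it at ETV4. The sole ETV4 peak in sgC DMSO had a −log10 q of 3.08, however, just above the threshold. With all peaks, these 4 genes lay above 86.9% to 94.0% of all genes in every condition. ELF3, EHF and SPDEF had no H3K27me3 peak in their windows, as did 67.6% of all genes in sgPRKCI enzalutamide, 66.2% in sgC enzalutamide, 65.1% in sgPRKCI DMSO and 69.1% in sgC DMSO.

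ETV4, a PEA3 factor whose protein is degraded through the COP1 ubiquitin ligase, lies at chr17:43527846-43546340. All 3 antibodies gave a peak at its upper annotated end in all 4 conditions. The H3K27me3 peak there was 6147 bp long in sgPRKCI enzalutamide, 6881 bp in sgC enzalutamide, 7705 bp in sgPRKCI DMSO and, close to these, 6660 bp in sgC DMSO. Inside it lay an H3K4me3 peak of 286 to 1388 bp, with a height of 16.5 (10.5 to 24.8) in sgPRKCI enzalutamide, 17.3 (11.4 to 25.2) in sgC enzalutamide, 16.4 (10.0 to 25.4) in sgPRKCI DMSO and 23.8 (14.5 to 36.7) in sgC DMSO. The 4 intervals overlap. These heights were low for H3K4me3, since 2.91% to 4.46% of promoter peaks were lower in the 4 libraries. EZH2 had a height of 18.3 (12.2 to 26.4) in sgPRKCI enzalutamide, 21.4 (15.0 to 29.7) in sgC enzalutamide, 28.4 (19.4 to 40.1) in sgPRKCI DMSO and 17.8 (11.4 to 26.4) in sgC DMSO. The intervals of the log2 ratios between conditions all include 0, for EZH2 and for H3K4me3. The EZH2 ratio of sgPRKCI over sgC in DMSO was 0.68 (−0.13 to 1.51) against a median of −0.21, and 99.1% of promoters were lower. The H3K4me3 ratio of sgPRKCI over sgC in DMSO was −0.53 (−1.50 to 0.44), and 0.923% of promoters were lower. For enzalutamide over DMSO in sgC it was −0.46 (−1.34 to 0.45), and 1.61% of promoters were lower. These ratios rest on 20 to 32 summit fragments in each library.

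ETV5, the third PEA3 gene, lies at chr3:186046314-186109089 and differed from ETV4 in how the marks were arranged. H3K27me3 lay on both sides of its upper annotated end and left a gap there in every condition. In sgC DMSO the peak on the gene side of the gap had a −log10 q of 2.22, so it is absent at a threshold of 3. The gap ran from 186108068 to 186109722 in sgPRKCI enzalutamide, from 186108291 to 186109872 in sgC enzalutamide, from 186108591 to 186109463 in sgPRKCI DMSO and from 186108542 to 186109864 in sgC DMSO. It was narrowest, at 873 bp, in sgPRKCI DMSO and widest, at 1655 bp, in sgPRKCI enzalutamide. The highest promoter H3K4me3 summit lay in that gap in the 3 conditions that had one. Its height was 25.2 (17.5 to 35.0) in sgPRKCI enzalutamide, 30.1 (22.1 to 40.1) in sgC enzalutamide and 16.4 (10.0 to 25.4) in sgPRKCI DMSO, with no promoter call in sgC DMSO, the shallowest H3K4me3 library. In sgPRKCI DMSO 2 further H3K4me3 peaks, with heights of 14.0 (8.14 to 22.4) and 14.8 (8.77 to 23.4), had summits outside the gap, 1 on either side. ETV5 counted as gained for H3K4me3 in sgPRKCI against sgC in DMSO, among 1.84% of all genes, and on enzalutamide against DMSO in sgC, among 1.64%. EZH2 at ETV5 had a height of 38.6 (29.3 to 49.7) in sgPRKCI enzalutamide, 48.8 (38.8 to 60.6) in sgC enzalutamide, 37.3 (26.9 to 50.4) in sgPRKCI DMSO and 37.0 (27.4 to 48.8) in sgC DMSO. It was the highest promoter EZH2 of the 8 genes in the last 3 of these libraries. There 93.7% of promoter EZH2 peaks were lower in sgC enzalutamide, 91.9% in sgPRKCI DMSO and 94.8% in sgC DMSO. The summit lay 34 bp from the annotated end in sgPRKCI enzalutamide. It lay 1200 bp inside that end in sgC enzalutamide, 1175 bp inside it in sgPRKCI DMSO and, in sgC DMSO, 1138 bp, under the H3K27me3 peak on the gene side of the gap.

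**Figure D3:**
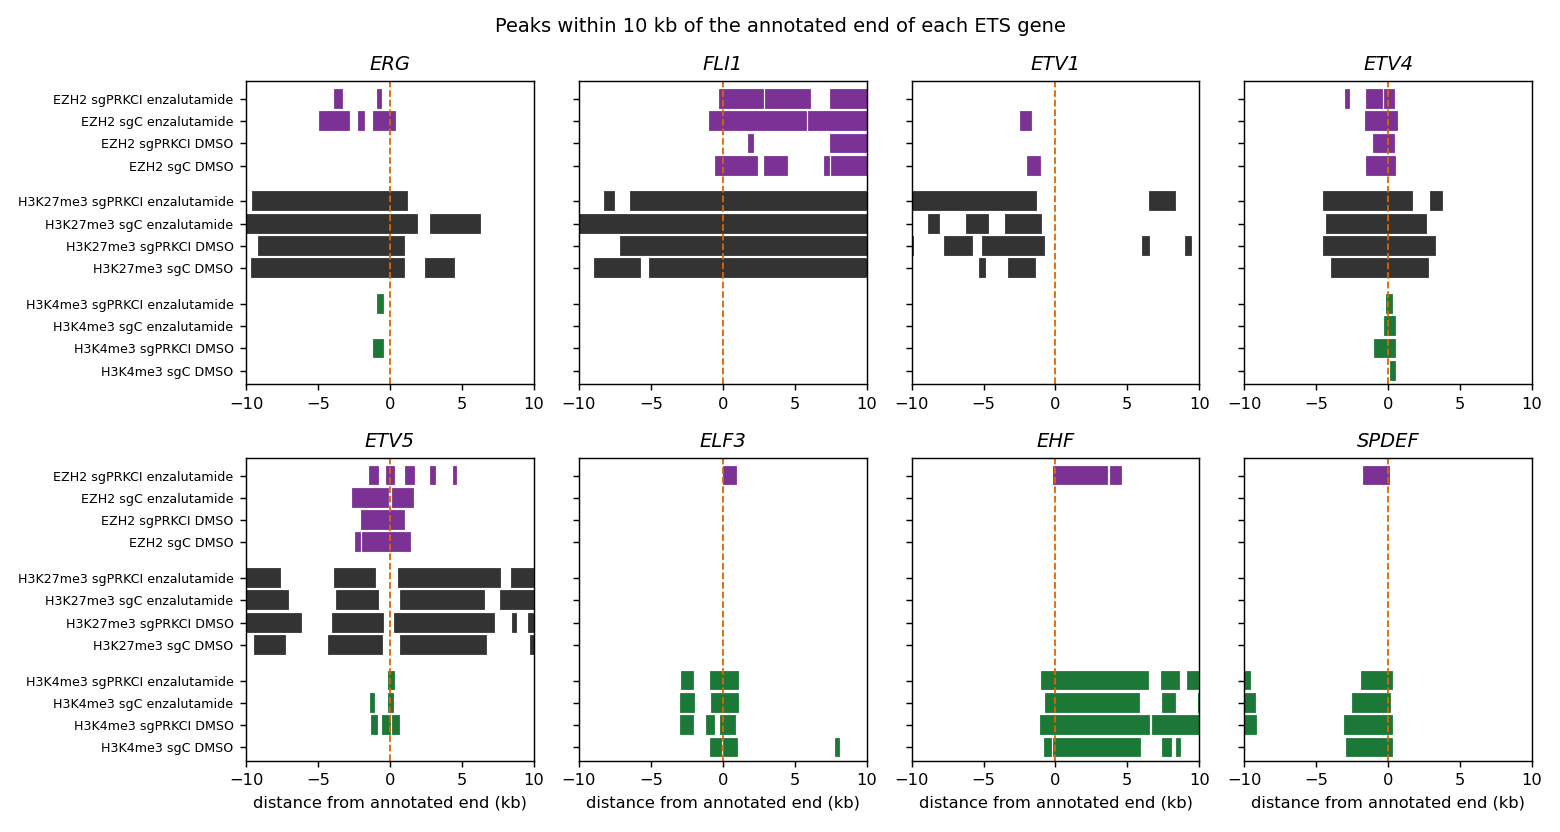
Peaks within 10 kb of the annotated end of each gene, drawn in chromosome order, with 1 row per library and the end at 0 kb as a dashed line. The end is the 5′ end, or for FLI1, ETV4 and ETV5 the end with the EZH2 promoter peaks. ETV5 shows the H3K27me3 gap of 873 to 1655 bp at 0 kb, and FLI1 the broad H3K27me3 peak with EZH2 on the gene side.

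ELF3, EHF and SPDEF are factors of differentiated epithelium, and EHF and SPDEF have been described as restraining invasion in prostate cells. Their promoters carried H3K4me3 in all 4 conditions although the starts shown held 7 or 8 CG. Of 4021 genes with at most 8 CG at the start nearest their 5′ end, 13.1% had promoter H3K4me3 in all 4 conditions, against 75.8% of 11822 genes with more. H3K4me3 at EHF, at chr11:34621093-34663288, formed a peak of 7331 bp in sgPRKCI enzalutamide, 6412 bp in sgC enzalutamide, 7503 bp in sgPRKCI DMSO and 5924 bp, the shortest, in sgC DMSO. Those peaks took in the annotated 5′ end and the table start shown above, and 5 to 7 further H3K4me3 peaks lay in the window. The promoter height of EHF was 170 (149 to 193) in sgPRKCI enzalutamide, 130 (113 to 149) in sgC enzalutamide, 141 (121 to 164) in sgPRKCI DMSO and 87.9 (69.0 to 110) in sgC DMSO. It was the highest H3K4me3 of the 8 genes except in sgC DMSO, where SPDEF was. The medians of all promoters were 147 in sgPRKCI enzalutamide, 138 in sgC enzalutamide, 118 in sgPRKCI DMSO and 114 in sgC DMSO.

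ELF3, at chr1:202010587-202017183, had an H3K4me3 height of 90.6 (75.4 to 108) in sgPRKCI enzalutamide, 91.1 (76.7 to 107) in sgC enzalutamide, 72.3 (58.0 to 89.1) in sgPRKCI DMSO and 63.0 (47.2 to 82.4) in sgC DMSO. An H3K4me3 peak also covered the start of the antisense gene ELF3-AS1 in all conditions but sgPRKCI DMSO. The log2 ratio of enzalutamide over DMSO was 0.32 (−0.08 to 0.73) in sgPRKCI and 0.53 (0.07 to 1.02) in sgC. The median of all promoters was 0.31 in sgPRKCI and 0.28 in sgC, and 53.3% of promoters were lower than ELF3 in sgPRKCI and 88.3% in sgC. By the authors' deposited fold enrichment the ELF3 ratios were 0.79 in sgPRKCI and 1.13 in sgC, against medians of 0.28 in sgPRKCI and 0.33 in sgC, with 81.3% of promoters lower in sgPRKCI and 90.9% in sgC. EHF had 0.26 (−0.03 to 0.56) in sgPRKCI and 0.57 (0.18 to 0.97) in sgC. EHF was higher in sgPRKCI than in sgC, with log2 ratios of 0.69 (0.28 to 1.10) in DMSO and 0.38 (0.10 to 0.66) on enzalutamide, where the medians were 0.07 in DMSO and 0.09 on enzalutamide. By height 98.6% of promoters were lower than EHF in DMSO and 92.1% on enzalutamide. The authors' deposited fold enrichment divides by a local background. By it the EHF ratio was 0.59 in DMSO, against a median of 0.27, and 72.8% of promoters were lower. On enzalutamide it was −0.04, against a median of 0.22, and 32.8% were lower.

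SPDEF, at chr6:34537802-34556329, had a lower H3K4me3 height on enzalutamide, where most promoters had a higher one, though other measures gave a smaller difference or its reverse. Its H3K4me3 height was 53.2 (41.8 to 66.8) in sgPRKCI enzalutamide, 68.0 (55.7 to 82.2) in sgC enzalutamide, 110 (92.3 to 130) in sgPRKCI DMSO and 95.0 (75.4 to 118) in sgC DMSO. Both enzalutamide libraries were below both DMSO libraries. The log2 ratio of enzalutamide over DMSO was −1.05 (−1.48 to −0.63) in sgPRKCI, against a median of 0.31, and 12 of 11864 promoters with a peak in both libraries were lower (0.101%). In sgC it was −0.48 (−0.92 to −0.05) against a median of 0.28, and 165 of 11582 promoters were lower (1.42%). Widths moved the same way, with 2060 bp in sgPRKCI enzalutamide, 2558 bp in sgC enzalutamide, 3244 bp in sgPRKCI DMSO and, nearly as wide, 3144 bp in sgC DMSO. The size depends on the measure, and in sgC the direction does too. By the authors' deposited fold enrichment the log2 ratios were −0.03 in sgPRKCI and −0.33 in sgC, against medians of 0.28 in sgPRKCI and 0.33 in sgC. By that measure 29.3% of promoters were lower in sgPRKCI and 13.8% in sgC. Fragments with no scaling for depth gave −0.86 in sgPRKCI and 0.41 in sgC, whose libraries differ most in depth. The medians of all promoters were then 0.5 in sgPRKCI and 1.17 in sgC. By each of these measures the SPDEF ratio lay below the median of all promoters in both guides. No interval covers variation between cultures.

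**Figure D4:**
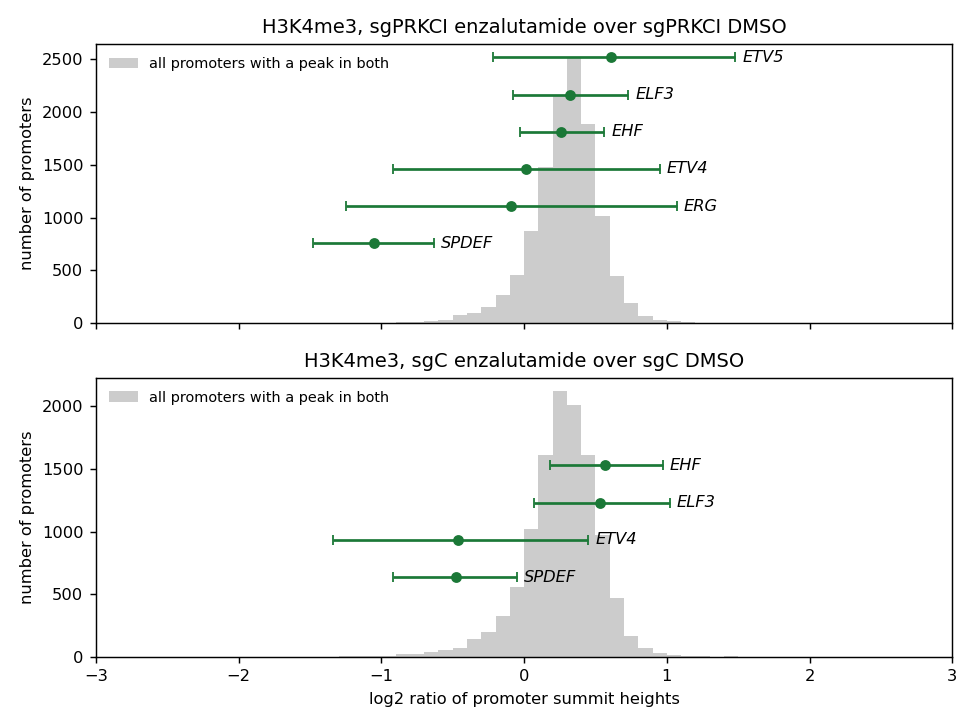
Log2 ratio of promoter H3K4me3 heights, enzalutamide over DMSO, in sgPRKCI (top) and sgC (bottom). Grey bars count all promoters with a peak in both libraries, and points with 95% counting intervals are the ETS genes with a peak in both, set at arbitrary heights. SPDEF lies at −1.05 in sgPRKCI, where the median is 0.31, and at −0.48 in sgC, where it is 0.28.

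EZH2 was called at the promoters of ELF3, EHF and SPDEF in sgPRKCI enzalutamide and in no other condition. Its heights there were 41.2 (31.6 to 52.7) for ELF3, 40.5 (31.1 to 51.9) for EHF and 34.0 (25.4 to 44.6) for SPDEF, all below the median of 71.9 over all promoters in that library. The 3 genes counted as gained in sgPRKCI against sgC on enzalutamide, together with 52.8% of all genes, and on enzalutamide against DMSO in sgPRKCI, together with 54.1%. The 3 gains were therefore no more frequent than the background of that library. In it, EZH2 height kept close to a fixed fraction of H3K4me3 height across 10983 genes with both and no H3K27me3, with a median log2 ratio of EZH2 over H3K4me3 of −0.99 (SD 0.25 across genes). The ratio was −1.14 at ELF3, −2.07 at EHF and −0.65 at SPDEF, and 0.182% of those genes were lower than EHF. At the genes with H3K27me3 it was −0.14 for ERG, 0.15 for ETV4 and 0.62 for ETV5. Of these 6 genes with both peaks, ETV5 had most EZH2 for its H3K4me3 in that library and EHF least, while FLI1 had an EZH2 peak and no H3K4me3 peak. Whether H3K4me3 fragments take part in the EZH2 signal of that library was not tested. With equal numbers of peaks per EZH2 library, 0 of the 8 genes kept an EZH2 promoter peak in sgPRKCI enzalutamide.

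**Figure D5:**
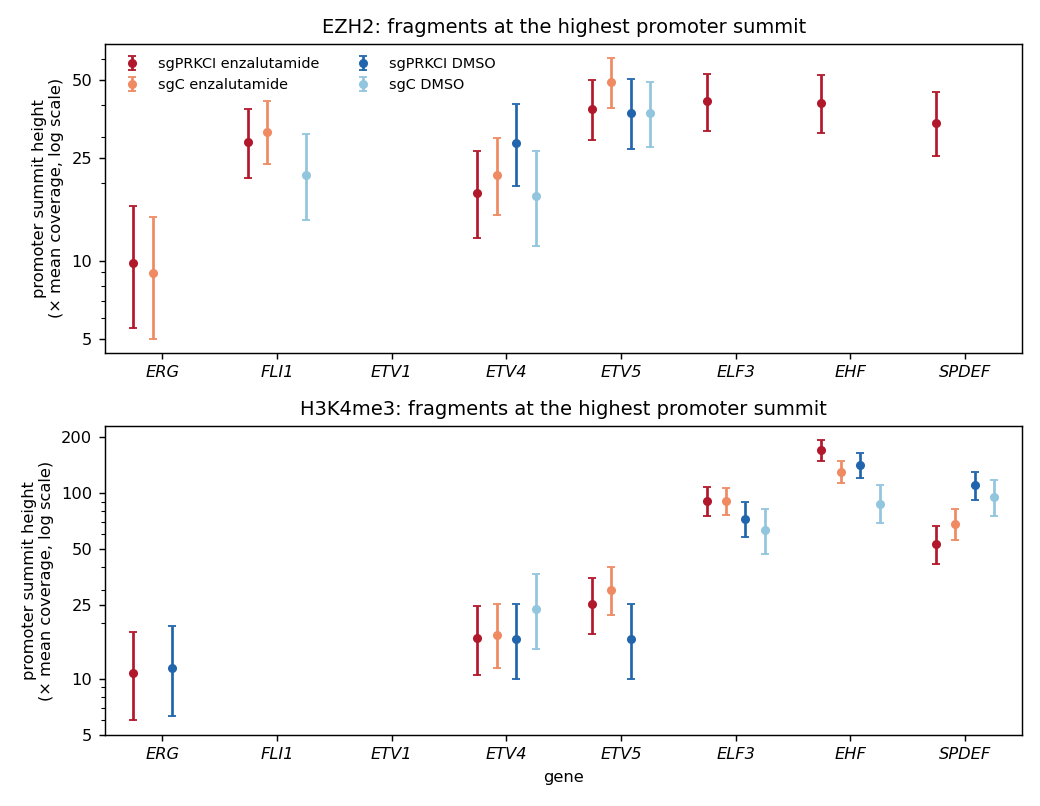
Height of the highest promoter summit of EZH2 (top) and H3K4me3 (bottom), as fragments over mean coverage on a log axis, with 95% Poisson intervals on the fragments of 1 library each. Conditions without a promoter peak have no point. EZH2 at ETV4 and ETV5 is present in all 4 conditions, whereas ELF3, EHF and SPDEF have EZH2 points in sgPRKCI enzalutamide alone.

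No member was lost at its promoter for any antibody in any of the 4 comparisons, and none was gained for H3K27me3. Losses were called at 0.260% to 10.7% of all genes in those comparisons, and H3K27me3 gains at 0.374% to 1.34%. Counts of 0 among 8 genes stand near these shares. Compared by their 12 promoter calls, ELF3, EHF and SPDEF were identical to each other and to 10 other ETS genes, among them the broadly expressed GABPA, ELF1 and ELK1, and 8439 other genes shared that pattern with each of them. ETV4 and ETV5 were alike in 11 of 12 calls and were the nearest ETS gene to each other. The calls of ETV4 were shared by 194 other genes, those of FLI1 by 81, those of ETV5 by 45 and those of ERG by 2. ETV1 was alike in 11 of 12 calls to ETV3L, SPIB and SPIC, none of which had a mark at the promoter. That likeness holds for the outermost 5′ end alone, since other starts of ETV1 had H3K27me3 within 1 kb in all 4 conditions.

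Fusion partner genes and regulators of ETS proteins mostly carried H3K4me3 and no H3K27me3 at their promoters, as 54.2% of all genes did in all 4 conditions. Of 8 genes known as 5′ fusion partners of ETS genes, among them HNRNPA2B1, HERPUD1, ACSL3 and TMPRSS2, promoter H3K4me3 was called at 8 in sgPRKCI enzalutamide, 7 in sgC enzalutamide, 8 in sgPRKCI DMSO and 8 in sgC DMSO. None had promoter H3K27me3, and EZH2 was called at 7 in sgPRKCI enzalutamide and at none in the other conditions. Of 8 genes of regulators of ETS proteins, among them COP1, the adaptor DET1 and the ubiquitin ligase subunit FBXW7, all had promoter H3K4me3 and none promoter H3K27me3 in any condition. EZH2 lay at all 8 in sgPRKCI enzalutamide, at none in sgC enzalutamide and sgPRKCI DMSO, and at COP1 and DET1 in sgC DMSO. Among the 20 other ETS genes, promoter H3K27me3 was called at 1 in sgPRKCI enzalutamide, 2 in sgC enzalutamide, 2 in sgPRKCI DMSO and 3 in sgC DMSO, and promoter EZH2 at 13 in sgPRKCI enzalutamide, 2 in sgC enzalutamide, none in sgPRKCI DMSO and 2 in sgC DMSO. Promoter H3K4me3 was called at 15 of these 20 in sgPRKCI enzalutamide and at 16 in each of sgC enzalutamide, sgPRKCI DMSO and sgC DMSO, and ETV3L, SPIB, SPIC and ETS1 had it in no condition. The counts stand beside shares of all genes of 58.2% to 60.3% for H3K4me3 and, in sgPRKCI enzalutamide, 61.6% for EZH2.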

How the data were processed

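Per the submitters' processing notes, FastQC, Trimmomatic, Bowtie2, SAMtools and MACS2 were used with GRCh38, and no versions are given. The authors deposited 1 peak list per library, narrow for EZH2 and H3K4me3 and broad for H3K27me3, per the files' layout. The lists hold a fold enrichment ratio, a −log10 p, a −log10 q and a score, as deposited by the authors. The lowest −log10 q was 4.00 to 4.05 in narrow and 1.00 to 1.02 in broad lists, and a missing peak means that none passed. The 4 IgG libraries are not analysed here.

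Summit fragments and local background were solved for each narrow peak from its deposited fold enrichment and p-value with Python 3.11.15 and scipy 1.17.1. Of all peaks, 99.95% to 100.0% gave whole fragments within 0.002 in −log10 p. Mean coverage of a library was estimated as the lowest local background among its peaks, divided by any pileup scaling. The EZH2 pileup of sgPRKCI enzalutamide had been scaled by 0.890. In simulated peaks, 100.0% of 1996 unscaled and 1986 scaled ones were solved rightly. Only chromosomes 1 to 22, X and Y entered, which drops 2.39% to 6.50% of the rows of a list, among them 1 row whose contig name is malformed. Positions and names come from RefSeq. Its promoter table gave the strand of 15843 genes, and both annotated ends were used for the rest. Overlap was at least 1 bp. Genes and lists were chosen with earlier results of these data known.

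All 8 genes are named. Of the luminal markers, 1 is not reported here. Other lists are given as counts with up to 4 genes of highest −log10 q, and COP1, DET1, FBXW7, GABPA, ELF1 and ELK1 were named after their calls were seen. Promoter H3K4me3 marked 1 of 4 leukocyte genes (SPI1), 1 of 3 fibroblast genes (COL1A1) and at most 1 of 3 endothelial genes. Where the strand is not known, a call can come from the 3′ end or a neighbour.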

Additional observations from a re-analysis of the deposited data

Results flagged for a closer look

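With all peaks, the H3K27me3 covered share of 3 genes moved in opposite directions on enzalutamide in the 2 guides. There was 1 library each, so the difference was not tested. Enzalutamide minus DMSO was −2.23 percentage points in sgPRKCI and 11.7 in sgC for ERG. For FLI1 it was −4.84 points in sgPRKCI and 10.0 in sgC, and for ETV4 −2.00 points in sgPRKCI and 0.574 in sgC. The mean over all genes also moved in opposite directions, by −0.326 points in sgPRKCI and 1.64 in sgC. For ERG the opposite directions depend on the threshold. With peaks of −log10 q of at least 3 alone, its share was higher on enzalutamide than in DMSO in both guides, though only slightly in sgPRKCI. FLI1 and ETV4 still moved in opposite directions at that threshold.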

How the results depend on the processing

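With equal numbers of peaks per antibody, EZH2 in sgPRKCI enzalutamide had 0 of the 8 genes at promoters and 0 in windows, because peaks of higher −log10 q elsewhere filled the list. Gains of EZH2 then numbered 0 and losses 3 in sgPRKCI against sgC on enzalutamide, 0 and 2 in sgPRKCI enzalutamide against sgPRKCI DMSO, and gains 0 in sgC enzalutamide against sgC DMSO. With the summit or middle of a peak required inside the promoter, EZH2 lay at 1 gene in sgPRKCI DMSO and 1 in sgC DMSO. H3K27me3 then lay at 0 genes in sgPRKCI enzalutamide, 2 in sgC enzalutamide, 1 in sgPRKCI DMSO and 2 in sgC DMSO, since the middle of a broad peak is often far from the start. At a −log10 q of at least 10 (narrow) or 3 (broad), H3K4me3 in sgC enzalutamide lay at 3 promoters and 3 windows. EZH2 gains in sgC enzalutamide against sgC DMSO were then 0, and EZH2 losses in sgPRKCI against sgC in DMSO 1. H3K4me3 had 1 gain and 1 loss in sgPRKCI against sgC in DMSO, and 0 gains and 1 loss in sgC enzalutamide against sgC DMSO. With the 1 kb window alone free of peaks, EZH2 had 1 loss in sgPRKCI against sgC in DMSO. H3K27me3 then had 1 gain in that comparison and 1 loss in sgPRKCI enzalutamide against sgPRKCI DMSO. Other counts stayed within 1.5 times of those reported, though the genes behind equal counts could differ. At a −log10 q of at least 10, the H3K4me3 gain in sgPRKCI against sgC on enzalutamide was ETV5 and no longer ERG. Among EZH2 gains in sgPRKCI enzalutamide against sgPRKCI DMSO, FLI1 then took the place of ERG. Of the log2 H3K4me3 ratios whose interval excluded 0, that of EHF in sgPRKCI against sgC on enzalutamide reversed by deposited fold enrichment (−0.04). That of SPDEF in sgC enzalutamide against sgC DMSO reversed with no depth scaling (0.41), where the median of all promoters was 1.17. Some ratios whose interval includes 0 changed sign too. ETV5 in sgPRKCI against sgC on enzalutamide had −0.26 by height and 1.03 by deposited fold enrichment. SPDEF in sgPRKCI against sgC in DMSO had 0.21 by height and −0.4 by deposited fold enrichment. The cause was not tested. H3K27me3 depth is not known, and a promoter with few fragments can fall on either side of the caller's threshold. No paired analysis was possible because the groups compared share 1 replicate number, with 1 library each, and the guides are conditions, not replicates.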
